A study of Homo sapiens with 12 samples.

Results

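The 55 genes described here code for lysosomal proteins and for the proton pump that acidifies the lysosome. They were taken by name from a list of 7 lysosomal membrane proteins, 9 proteases, 11 glycosidases, 4 sulfatases, 8 lipid-degrading enzymes and cofactors, and 16 proteins of the vacuolar H+-ATPase (V-ATPase), which are 6 subunits of its V0 sector, 8 of its V1 sector and 2 accessory proteins. All 55 names were found among the 57353 gene names of the count table, and 52 were among the 12998 genes with a mean count of at least 1 and a mean of at least 1 CPM (the count scaled to a library of 1e+06) over all libraries, which were the genes tested. RNA-seq was performed on MOLM-13 cells, an established human acute myeloid leukemia (AML) line that carries the internal tandem duplication of FLT3 (FLT3-ITD), so every group carries this activated kinase and all groups come from 1 line. Cells received vehicle (DMSO) or 3 nM quizartinib (AC220), an inhibitor of FLT3, for 15 hr. The culture medium was either RPMI alone or hBMSC-CM, a mixture of equal parts of RPMI and filtered medium conditioned by HS-5 cells, a human bone marrow stromal line. Each of the 4 groups had 3 replicates. The comparisons ask what the drug changed in each medium, what the medium changed with and without the drug, and whether the drug response differed by medium.

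Lysosomes are acidic organelles in which proteins, glycans, sulfated sugars, nucleic acids and lipids are broken down. Soluble hydrolases reach them with a mannose 6-phosphate tag, heavily glycosylated membrane proteins line the inside of the limiting membrane, and the V-ATPase pumps protons across it, with the V1 sector hydrolyzing ATP in the cytosol and the V0 sector carrying protons through the membrane. Many of these genes hold the E-box CACGTG near their start, which is bound by TFEB, TFE3 and MITF, and the kinase mTORC1, which sits on the lysosome together with the Rag GTPases, keeps TFEB and TFE3 in the cytosol when nutrients are plentiful.

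Total counts lay between 19966546 and 31546104 per library, and a gene with no count in a library could have had up to 3 counts, or 0.0951 to 0.150 CPM, by counting error alone. The 7 genes chosen as marks of myeloid leukemia cells (PTPRC, CD33, MPO, FLT3, SPI1, CEBPA and LYZ) were all tested, with sums of 1122 to 1182 CPM for vehicle in RPMI, 1685 to 1699 for quizartinib in RPMI, 1384 to 1420 for vehicle in hBMSC-CM and 2031 to 2204 for quizartinib in hBMSC-CM. Of 12 stromal cell genes, only COL1A1, TAGLN and ACTA2 passed the filter, 5 had no count in any library, and their sums were 6.84 to 7.55 CPM and 15.7 to 19.6 CPM without and with quizartinib in RPMI, against 5.13 to 6.33 CPM and 9.57 to 10.7 CPM in hBMSC-CM. Of 10 monocyte maturation genes 7 passed the filter and none was at 0 in every library, and the sums of all 10 were 83.6 to 91.2 CPM and 161.8 to 169.8 CPM without and with quizartinib in RPMI, and 132.5 to 134.2 CPM and 244.8 to 254.7 CPM in hBMSC-CM. These sums hide opposite changes. By the test described below, 4 of these 7 were higher with quizartinib in RPMI and 3 lower, and 5 and 0 in hBMSC-CM. For the 7 myeloid leukemia genes the counts were 4 and 3 in RPMI, and 3 and 2 in hBMSC-CM. Of all tested genes, 40.1% were higher and 39.2% lower in RPMI, and 33.4% and 33.7% in hBMSC-CM. The share of counts on mitochondrially encoded genes also moved with quizartinib, from 0.683-0.790% to 1.02-1.10% in RPMI and from 0.458-0.613% to 0.683-0.947% in hBMSC-CM. The part of these shifts in the results below was not tested. The study describes its replicates as biological, and all are samples of 1 cell line. The p-values set group differences against the spread between these samples and do not cover other lines or patients.

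To show a sequence element known from many of these genes, promoters (250 bases before to 50 after a gene start) were taken from RefSeq on GRCh38.p14 and searched for CACGTG, which reads the same on both strands, and for its longer form GTCACGTG, or CACGTGAC on the other strand, each match of which contains the E-box. Promoters were found for 39 of the 55 genes, and 12 of these (30.8%) held the E-box, compared with 13.2% of the 8989 tested genes with a promoter and 8.79% of all 27195 genes with one. The longer form stood in 10 of the 39 (25.6%), against 5.56% of the tested genes and 2.94% of all genes. The windows below are shown for the 6 genes whose E-box region upstream of the RefSeq start touches no exon of GENCODE v44. They run 5′ to 3′ on the strand of the gene, with E-boxes in capitals, extended by GT before or AC after where the longer form is present.
LAMP1, chr13:113297032-113297231, + strand: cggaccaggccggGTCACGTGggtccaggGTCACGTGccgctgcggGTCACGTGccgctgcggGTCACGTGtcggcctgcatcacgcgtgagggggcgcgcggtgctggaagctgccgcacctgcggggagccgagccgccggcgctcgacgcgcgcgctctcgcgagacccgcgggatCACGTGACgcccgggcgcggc
MCOLN1, chr19:7522568-7522603, + strand: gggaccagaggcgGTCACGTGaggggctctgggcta
ATP6V0B, chr1:43974888-43974941, + strand: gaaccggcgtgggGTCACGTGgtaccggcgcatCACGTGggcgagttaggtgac
ATP6V0D1, chr16:67481196-67481231, - strand: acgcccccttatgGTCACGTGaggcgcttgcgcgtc
NEU1, chr6:31862927-31862962, - strand: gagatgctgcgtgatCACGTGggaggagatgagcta
ARSB, chr5:78986098-78986133, - strand: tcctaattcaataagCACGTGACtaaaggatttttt

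LAMP1 had 6 E-boxes in its promoter, 5 of them in the window shown. The other genes with an E-box were CD63, CLN3, CTSA, CTSD, GAA and ATP6V1G1. With regard to the response to quizartinib in RPMI that is described below, the E-box was present in 5 of the 22 promoters of members that were higher, in 1 of 7 of those that were lower and in 6 of 9 of those that were not called. A match is a run of letters and not a measured binding site.

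Levels between genes are compared as CPM per kb of the MANE Select transcript, averaged over the 3 vehicle-treated libraries in RPMI. On this scale the highest were CTSC (153.0), a dipeptidyl peptidase that activates serine proteases of granulocytes, CD63 (141.2), a tetraspanin of late endosomes, ATP6V0B (107.9), a proteolipid subunit of the proton-conducting ring, CTSZ (97.8), a carboxypeptidase, PPT1 (96.4), which removes palmitate from proteins, and LAMP1 (86.4), a main glycoprotein of the lysosomal membrane. The lowest tested genes were IDS (0.889), IDUA (2.18) and CLN3 (2.6). LGMN, an asparaginyl endopeptidase, had 1 to 4 counts per library, SGSH, heparan N-sulfatase, had 0 to 2, and ATP6V0C, the main proteolipid of the ring, had 1 to 7, so no comparison was made for these 3. Of the exon bases of ATP6V0C, 98.8% are shared with other genes on the same strand in GENCODE v44, as are all of those of CLN3 and 90.7% of IDS, 62.1% of CTSD and 35.7% of MAN2B1, whereas SGSH shares 2.1% of its exon bases with a gene on the other strand. In all, 10 members share over 10% of their exon bases with another gene, among them TPP1, 19.0% of whose bases are shared with a long non-coding RNA. Reads on shared bases may not have been counted for these genes, and the effect on their values was not tested.

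Upon FLT3 inhibition in RPMI, most of the lysosomal genes rose in scaled counts. Of the 52 tested, 31 were higher and 9 lower with quizartinib, where 40.1% and 39.2% of all tested genes were called in these directions (quasi-likelihood test of edgeR, p-values adjusted over all genes by Benjamini-Hochberg, called under 0.05). The median log2 fold change (log2 FC) was 0.38 over the members and 0.02 over all tested genes. Together the 55 genes held 0.404-0.409% of all counts with vehicle and 0.529-0.531% with quizartinib. In bulk RNA, fewer cells of a type and less RNA per cell cannot be told apart. All values are relative to the other RNA of a library, so a higher value need not mean more transcript per cell. In its polysome experiment on these cells, a separate experiment with a shorter treatment, the study reports lower RNA yields with quizartinib, also from whole lysates. The amount of RNA per cell was not tested here. The split depended on scaling: with library size alone or upper-quartile factors it was 36 higher and 5 lower, and without the filter on low counts 28 higher and 15 lower. The groups did not overlap for 41 members, but that also held for 81.1% of all tested genes.

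**Figure D1:**
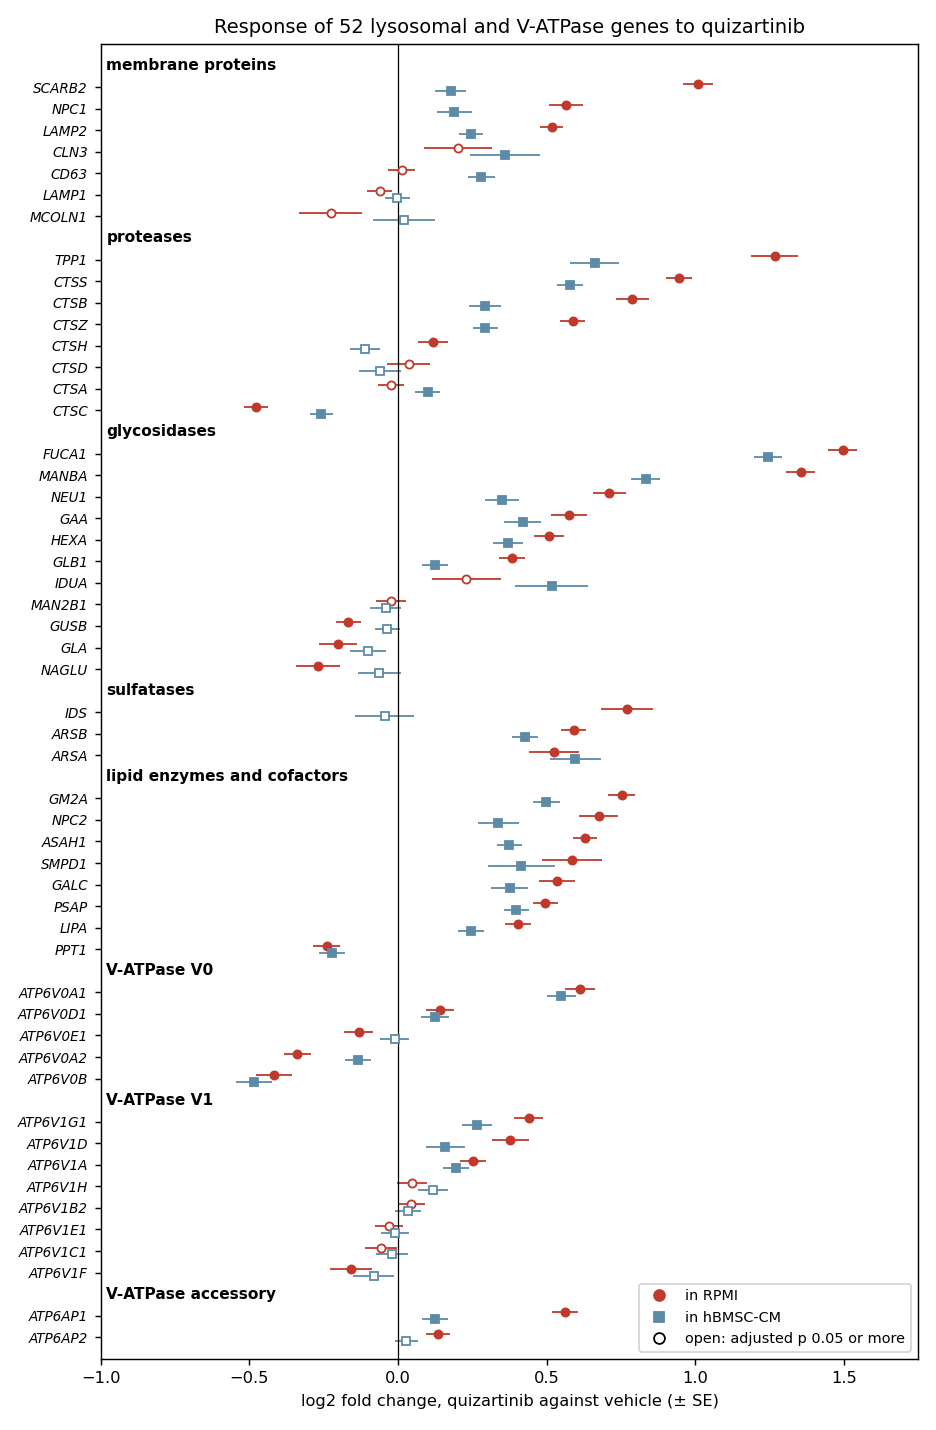
Log2 fold changes of quizartinib against vehicle (x axis, ± SE, 3 libraries per group) for each of the 52 tested genes, grouped by role, in RPMI (red circles) and hBMSC-CM (blue squares); open symbols did not pass the adjusted p of 0.05. FUCA1, MANBA, TPP1 and SCARB2 stand farthest to the right in RPMI, CTSC and ATP6V0B farthest to the left, and the V-ATPase subunits lie on both sides of 0; with library size alone or upper-quartile factors 36 members were called higher and 5 lower in RPMI.

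By role, 21 of the 31 increases were among the enzymes and their cofactors. Of 30 tested hydrolases and cofactors, 21 were higher and 5 lower in RPMI (median log2 fold change 0.53), of 7 membrane proteins 3 were higher and none lower (0.20), and of 15 V-ATPase proteins 7 were higher and 4 lower (0.05). These are 70%, 42.9% and 46.7% higher and 16.7%, 0% and 26.7% lower, beside 40.1% and 39.2% of all tested genes, so the shares of higher membrane and V-ATPase proteins lay near that of all genes. The difference between these lists was not tested. Fold changes reached 2-fold for 4 members, all higher. In hBMSC-CM, 32 members were higher and 4 lower with quizartinib, against 33.4% and 33.7% of all tested genes, and the median log2 fold change was 0.18. There the split was 36 to 3 with library size alone, with which 62.8% of all calls were higher in place of 49.8%. With quizartinib the 55 genes held 0.518-0.523% of counts in hBMSC-CM, compared with 0.433-0.436% with vehicle.

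**Figure D2:**
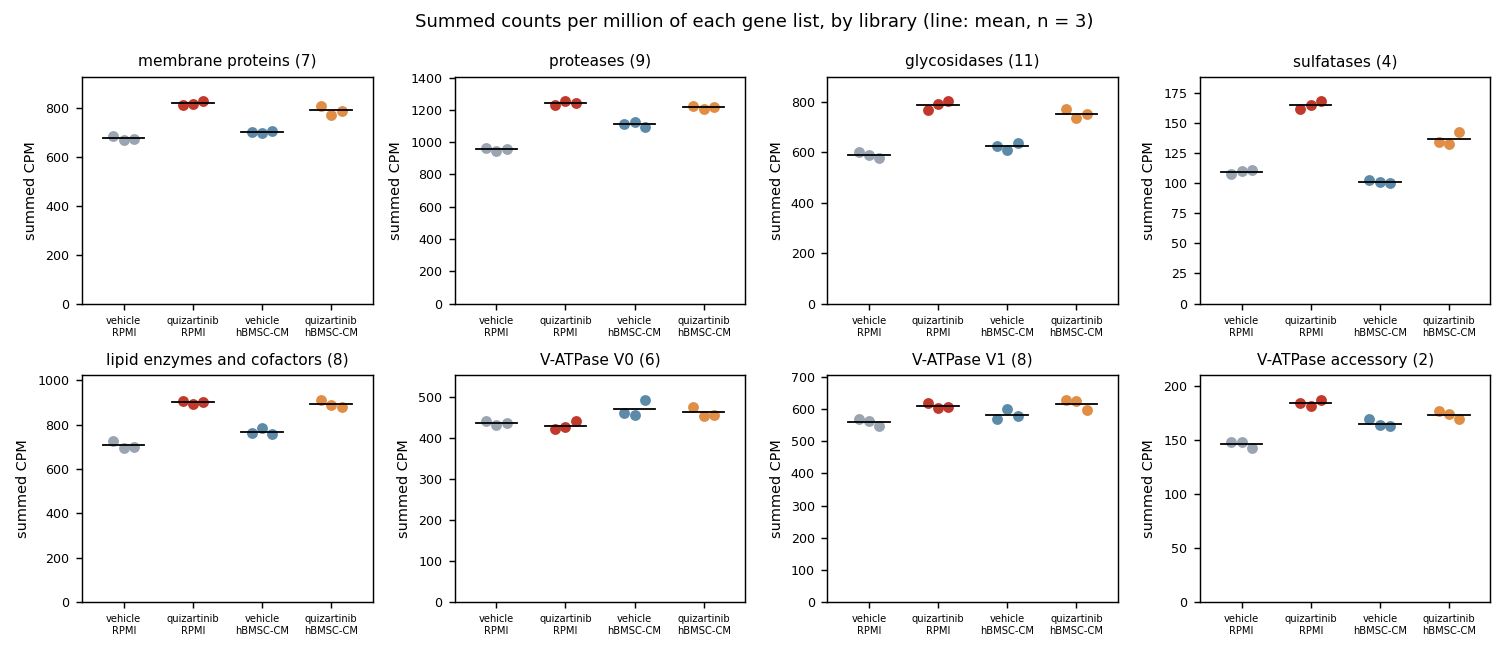
Summed CPM of each gene list (y axis from 0, number of genes in the title) in each of the 12 libraries (points), with the mean of 3 replicates (line), for vehicle and quizartinib in RPMI and hBMSC-CM. The sums of the proteases lie at 943.0-966.7 CPM with vehicle and at 1228-1253 CPM with quizartinib in RPMI, whereas those of the V0 subunits overlap at 432.7-441.8 and 423.5-441.9 CPM.

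Among the membrane proteins, SCARB2 had the largest log2 fold change in RPMI, and CLN3 in hBMSC-CM. SCARB2 (LIMP-2, chr4:76158737-76234536, - strand) carries glucocerebrosidase to the lysosome. Its levels, in CPM scaled by TMM as for all values per library, were 42.6, 48.1 and 47.9 CPM with vehicle and 96.4, 91.2 and 91 CPM with quizartinib in RPMI, and the groups lay far apart (log2 FC 1.01 ± 0.05 (SE), adjusted p = 9.19e-14). In hBMSC-CM they were 47.5, 49.6 and 47.5 CPM and 56.2, 54 and 53 CPM, again without overlap but close together (log2 FC 0.18 ± 0.05 (SE), adjusted p = 0.00535). LAMP2, which takes part in the fusion of autophagosomes with lysosomes, rose from 208, 196 and 204 CPM to 287, 293 and 289 CPM in RPMI (log2 FC 0.52 ± 0.04 (SE), adjusted p = 9.38e-11), and NPC1, a cholesterol exporter, rose by 0.57 on the log2 scale (adjusted p = 9.48e-09). In hBMSC-CM both were called with smaller log2 fold changes, 0.25 for LAMP2 and 0.19 for NPC1, the latter not called without replicate 3 of vehicle in hBMSC-CM (adjusted p = 0.0524).

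LAMP1, in contrast, was at 239, 232 and 229 CPM with vehicle and 221, 219 and 231 CPM with quizartinib in RPMI, and the groups overlapped (log2 FC -0.06 ± 0.04 (SE), adjusted p = 0.173). It was called lower without the low-count filter (log2 FC -0.16) and with filterByExpr (-0.12). For MCOLN1, a calcium channel of the lysosome, the libraries read 8.41, 7.98 and 9.31 CPM with vehicle and 6.52, 7.61 and 7.81 CPM with quizartinib (log2 FC -0.23 ± 0.11 (SE), adjusted p = 0.0565). The groups did not overlap here, although the adjusted p missed the threshold, and it passed under 3 of the other settings and in the fits without replicate 2 of vehicle in RPMI (adjusted p = 0.0416) or replicate 1 of vehicle in hBMSC-CM (0.0402). Like CTSA, CLN3 and IDUA, CD63 was called higher with quizartinib in hBMSC-CM but not in RPMI. It was at 147, 146 and 140 CPM and 142, 146 and 149 CPM without and with quizartinib in RPMI, a log2 difference of 0.01 (adjusted p = 0.811) that was 0.10 and called with library size alone and -0.09 without the low-count filter. In hBMSC-CM the values were 167, 168 and 172 CPM and 220, 197 and 198 CPM, and CD63 rose (log2 FC 0.28 ± 0.04 (SE), adjusted p = 1.36e-05). CLN3, a membrane protein lost in a childhood neurodegenerative disease, had low counts, with a log2 FC of 0.20 in RPMI (adjusted p = 0.112) and an increase in hBMSC-CM (log2 FC 0.36 ± 0.12 (SE), adjusted p = 0.0105). It was called higher in RPMI too with library size alone and upper-quartile factors (adjusted p = 0.0274 and 0.0204), and its call in hBMSC-CM was lost without replicate 1 of vehicle or replicate 3 of quizartinib in that medium (0.0553 and 0.0551).

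**Figure D3:**
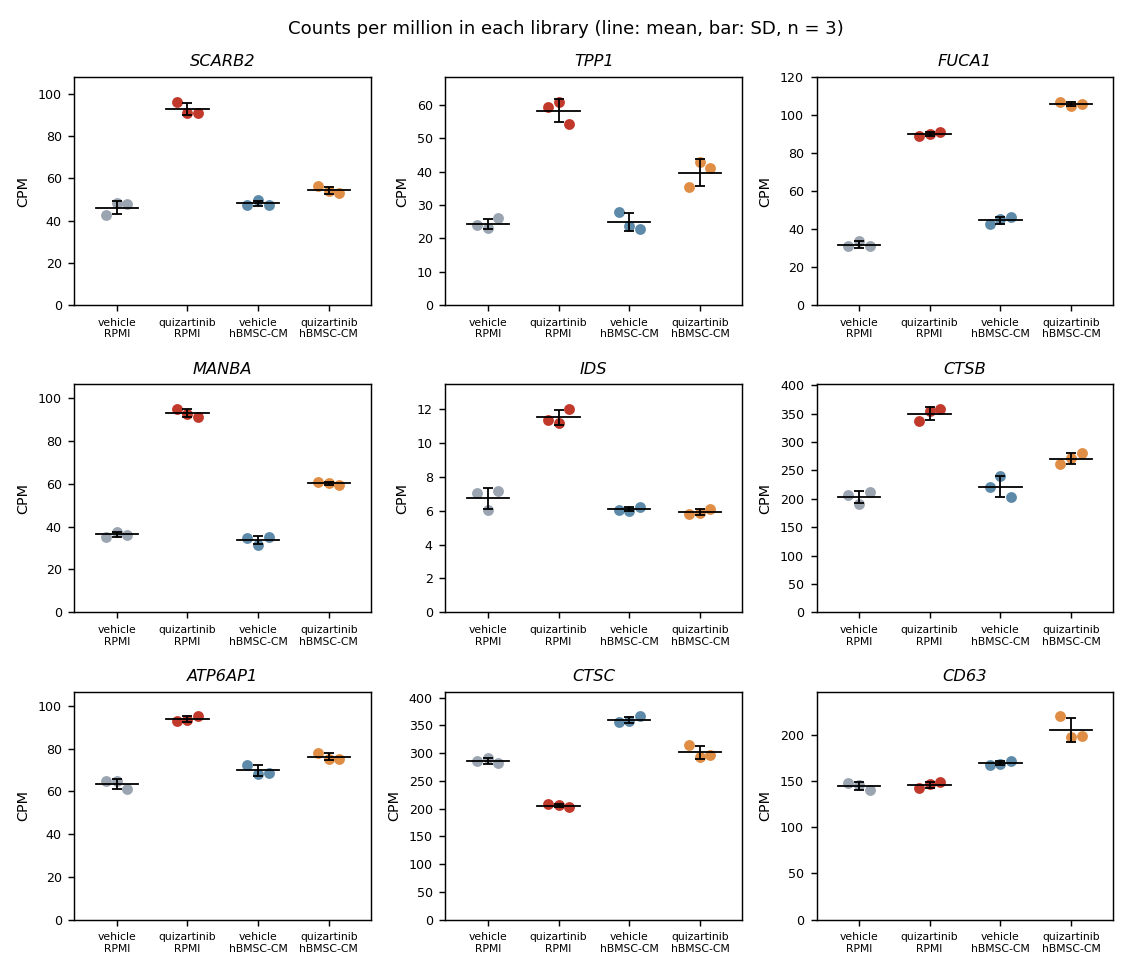
CPM (y axis, from 0) of 9 genes in each of the 12 libraries (points), with mean (line) and SD (bar) of 3 replicates per group. SCARB2 and IDS are highest in the quizartinib libraries in RPMI, FUCA1 is high with quizartinib in both media, CTSC is lowest with quizartinib in RPMI, and CD63 is highest with quizartinib in hBMSC-CM.

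The proteases split by enzyme. TPP1 (tripeptidyl peptidase, chr11:6612768-6619448, - strand) read 23.9, 23 and 26.1 CPM with vehicle and 59.5, 61 and 54.5 CPM with quizartinib in RPMI (log2 FC 1.27 ± 0.08 (SE), adjusted p = 3.64e-12). In hBMSC-CM its levels were 28, 23.8 and 22.8 CPM and 35.3, 42.8 and 41.2 CPM (log2 FC 0.66 ± 0.08 (SE), adjusted p = 4.25e-07). The quizartinib libraries lay above the vehicle libraries in both media, and those in RPMI were the highest. CTSB, a cysteine protease with both endo- and exopeptidase activity, went from 206, 191 and 211 CPM to 337, 355 and 359 CPM in RPMI (log2 FC 0.79 ± 0.05 (SE), adjusted p = 2.03e-11) and from 221, 240 and 203 CPM to 261, 271 and 281 CPM in hBMSC-CM (log2 FC 0.29 ± 0.05 (SE), adjusted p = 8.04e-05). CTSS, a cysteine protease of antigen-presenting cells that trims the invariant chain, and CTSZ rose in both media, CTSS by 0.94 and 0.58 and CTSZ by 0.59 and 0.29 on the log2 scale in RPMI and hBMSC-CM. CTSC was the exception. Its levels fell from 285, 292 and 281 CPM to 208, 206 and 202 CPM in RPMI (log2 FC -0.48 ± 0.04 (SE), adjusted p = 4.57e-10) and from 357, 357 and 367 CPM to 314, 293 and 296 CPM in hBMSC-CM (log2 FC -0.26 ± 0.04 (SE), adjusted p = 7.64e-06). The groups did not overlap in either medium. CTSA, which protects NEU1 and GLB1 in a complex, and CTSD, the main aspartic protease, had log2 fold changes of -0.02 and 0.04 in RPMI that were not called, except that CTSA was called lower without the low-count filter, and CTSH, an aminopeptidase, was called higher in RPMI (log2 FC 0.12 ± 0.05 (SE), adjusted p = 0.0369), a call that was lost in 10 of the other fits (adjusted p = 0.0501 to 0.909), among them those without replicate 2 or 3 of vehicle or of quizartinib in RPMI or replicate 1 of vehicle in hBMSC-CM. In hBMSC-CM, CTSA was called higher (log2 FC 0.10 ± 0.04 (SE), adjusted p = 0.0409), a call lost in 14 of the other fits (0.0511 to 0.403).

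The strongest responses of all were those of 2 glycosidases. FUCA1 (chr1:23845077-23868290, - strand), which removes fucose from glycoproteins and glycolipids, read 30.9, 33.8 and 31 CPM with vehicle and 88.8, 90.0 and 91.1 CPM with quizartinib in RPMI, a change of 2.82-fold (log2 FC 1.495 ± 0.05 (SE), adjusted p = 4.57e-17). In hBMSC-CM the vehicle libraries were already at 42.7, 45.5 and 46.2 CPM, and the quizartinib libraries reached 107, 105 and 106 CPM (log2 FC 1.24 ± 0.05 (SE), adjusted p = 5.32e-15). All 6 quizartinib libraries lay above all 6 vehicle libraries. MANBA (chr4:102630770-102760994, - strand), which cleaves the last β-linked mannose of N-glycans, went from 35.3, 37.6 and 36 CPM to 94.9, 92.3 and 91.1 CPM in RPMI (log2 FC 1.35 ± 0.05 (SE), adjusted p = 2.65e-16) and from 34.4, 31.5 and 35.1 CPM to 60.5, 60.4 and 59.3 CPM in hBMSC-CM (log2 FC 0.83 ± 0.05 (SE), adjusted p = 7.84e-12). The quizartinib libraries in hBMSC-CM thus stood between the vehicle libraries of either medium and the quizartinib libraries in RPMI. NEU1, a sialidase, GAA, the acid α-glucosidase of glycogen breakdown, HEXA, the α-subunit of the enzyme that degrades GM2 ganglioside, and GLB1, the acid β-galactosidase, rose in RPMI by 0.71, 0.58, 0.51 and 0.38 on the log2 scale and in hBMSC-CM by 0.35, 0.42, 0.37 and 0.12. The call of GLB1 in hBMSC-CM was lost without the low-count filter, with filterByExpr and without replicate 2 of vehicle or replicate 1 of quizartinib in that medium (adjusted p = 0.0533 to 0.218).

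NAGLU, which acts on heparan sulfate, was lower in RPMI, at 13.5, 13.2 and 14.1 CPM with vehicle and 11, 11.1 and 11.8 CPM with quizartinib (log2 FC -0.27 ± 0.07 (SE), adjusted p = 0.00249). The groups did not overlap. GLA, an α-galactosidase, and GUSB, a β-glucuronidase with 21 named pseudogenes in GENCODE v44, were also called lower in RPMI (-0.20 and -0.17), and neither remained a call with library size alone or upper-quartile factors. None of these 3 was called in hBMSC-CM, except for GLA without replicate 1 of quizartinib in that medium (adjusted p = 0.0192). MAN2B1, an α-mannosidase, read 134, 127 and 132 CPM and 118, 130 and 138 CPM in RPMI, with overlap (log2 FC -0.02 ± 0.05 (SE), adjusted p = 0.675), and was called lower without the low-count filter (-0.13). IDUA, which removes iduronic acid from dermatan and heparan sulfate, read 4.68, 4.66 and 4.89 CPM with vehicle and 5.35, 5.42 and 5.96 CPM with quizartinib in RPMI (log2 FC 0.23 ± 0.12 (SE), adjusted p = 0.0781), and 4.65, 3.65 and 3.51 CPM and 5.33, 6.28 and 5.67 CPM in hBMSC-CM (log2 FC 0.52 ± 0.12 (SE), adjusted p = 0.000891). It lay higher in the quizartinib libraries in both media and passed the test in hBMSC-CM, and in RPMI with library size alone and upper-quartile factors (adjusted p = 0.0185 and 0.0139).

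All 3 tested sulfatases rose in RPMI, and they parted in hBMSC-CM. IDS (chrX:149476988-149521096, - strand), which removes sulfate from iduronic acid of heparan and dermatan sulfate, read 7.04, 6.02 and 7.15 CPM with vehicle and 11.3, 11.2 and 12 CPM with quizartinib in RPMI (log2 FC 0.77 ± 0.09 (SE), adjusted p = 6.61e-08). In hBMSC-CM it was at 6.07, 6.01 and 6.22 CPM and 5.78, 5.88 and 6.09 CPM, and the groups overlapped (log2 FC -0.04 ± 0.10 (SE), adjusted p = 0.708). ARSA, which removes sulfate from sulfatide, went from 15.4, 14.7 and 16.8 CPM to 22.2, 23.3 and 21.8 CPM in RPMI (log2 FC 0.52 ± 0.08 (SE), adjusted p = 8.32e-06) and from 15.3, 13.5 and 17.6 CPM to 21.9, 22.7 and 25.7 CPM in hBMSC-CM (log2 FC 0.60 ± 0.09 (SE), adjusted p = 3.12e-06). The increase of ARSA was thus seen in both media. ARSB, which acts on dermatan and chondroitin sulfate, rose by 0.59 and 0.43 on the log2 scale in RPMI and hBMSC-CM.

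Of the 8 lipid enzymes and cofactors, 7 rose and PPT1 fell, in RPMI as in hBMSC-CM. GM2A, the activator protein that presents GM2 ganglioside to hexosaminidase, went from 62.5, 64.8 and 59 CPM to 104, 105 and 104 CPM in RPMI (log2 FC 0.75 ± 0.05 (SE), adjusted p = 2.48e-12) and from 66.2, 66.5 and 67.4 CPM to 99.8, 90.6 and 92.1 CPM in hBMSC-CM (log2 FC 0.50 ± 0.05 (SE), adjusted p = 6.37e-09). Next by size in RPMI were NPC2, which hands cholesterol to NPC1 (0.67), ASAH1, acid ceramidase (0.63), SMPD1, acid sphingomyelinase (0.59), GALC, which cleaves galactosylceramide (0.54), PSAP, the precursor of the saposins (0.50), and LIPA, the lysosomal acid lipase (0.40). In hBMSC-CM these 6 rose by 0.34, 0.37, 0.42, 0.38, 0.40 and 0.25 in the same order. PPT1 fell, from 230, 211 and 220 CPM to 194, 181 and 185 CPM in RPMI (log2 FC -0.24 ± 0.04 (SE), adjusted p = 4.64e-05) and from 240, 246 and 229 CPM to 204, 209 and 199 CPM in hBMSC-CM (log2 FC -0.22 ± 0.04 (SE), adjusted p = 0.000172). The response of PPT1 in hBMSC-CM differed from that in RPMI by less than its standard error (log2 difference 0.02 ± 0.06 (SE), adjusted p = 0.835).

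The V-ATPase proteins had calls in both directions. In the V0 sector, ATP6V0A1, one of the alternative a subunits, rose from 60.4, 61 and 61 CPM to 94, 93.6 and 91 CPM in RPMI (log2 FC 0.61 ± 0.05 (SE), adjusted p = 2.74e-10) and from 63.6, 56.2 and 54.8 CPM to 83.8, 84.9 and 87.8 CPM in hBMSC-CM (log2 FC 0.55 ± 0.05 (SE), adjusted p = 5.07e-09). The a subunit ATP6V0A2, found largely in the Golgi, went the other way, from 78, 79 and 78.1 CPM to 64.3, 60.3 and 61.4 CPM in RPMI (log2 FC -0.34 ± 0.04 (SE), adjusted p = 5.76e-07), and fell by less in hBMSC-CM (log2 FC -0.13 ± 0.04 (SE), adjusted p = 0.0114), a call lost with library size alone, with upper-quartile factors and without replicate 3 of quizartinib in hBMSC-CM (adjusted p = 0.0756 to 0.547). ATP6V0B fell from 107, 103 and 109 CPM to 75.7, 77.4 and 86.5 CPM in RPMI (log2 FC -0.42 ± 0.06 (SE), adjusted p = 2.55e-06) and from 123, 121 and 146 CPM to 95.9, 90.4 and 92.2 CPM in hBMSC-CM (log2 FC -0.48 ± 0.06 (SE), adjusted p = 5.6e-07). No library of one treatment overlapped with the other treatment in the same medium for these 3 subunits. ATP6V0D1, which links ring and stalk, rose by 0.14, and ATP6V0E1, a small membrane subunit, was lower, with a log2 FC of -0.13 in RPMI. The call of ATP6V0D1 was lost without the low-count filter and with filterByExpr (adjusted p = 0.591 and 0.118). That of ATP6V0E1 was lost with library size alone, with upper-quartile factors and without replicate 1 of vehicle or replicate 2 of quizartinib in RPMI (adjusted p = 0.0549 to 0.568). In hBMSC-CM, ATP6V0D1 was called higher (log2 FC 0.12 ± 0.05 (SE), adjusted p = 0.0253), a call lost in 6 of the other fits (0.0545 to 0.182). Another a subunit, TCIRG1, which is not among the 55 genes, was lower in RPMI (log2 FC -0.21 ± 0.06 (SE), adjusted p = 0.00158).

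In the V1 sector, ATP6V1G1, a subunit of the peripheral stalk with 7 named pseudogenes, rose from 64.8, 64.2 and 60.0 CPM to 83.7, 85.8 and 87.1 CPM in RPMI (log2 FC 0.44 ± 0.05 (SE), adjusted p = 4.93e-08) and from 54.3, 61.2 and 60.2 CPM to 72.1, 70.1 and 68.5 CPM in hBMSC-CM (log2 FC 0.27 ± 0.05 (SE), adjusted p = 9e-05). ATP6V1D, of the central rotor, and ATP6V1A, the catalytic subunit, also rose in RPMI (0.38 and 0.25). In hBMSC-CM they rose by 0.16 and 0.20 on the log2 scale. The call of ATP6V1D in hBMSC-CM (adjusted p = 0.0353) was lost in 7 of the other fits (0.0524 to 0.226). ATP6V1F read 30.5, 26.3 and 29.3 CPM with vehicle and 24.1, 25.4 and 28 CPM with quizartinib in RPMI (log2 FC -0.16 ± 0.07 (SE), adjusted p = 0.0454). The groups of ATP6V1F overlapped, and the call was lost with library size alone, with upper-quartile factors, with the DESeq2 Wald test, and without replicate 1 or 3 of vehicle in RPMI, replicate 1 or 2 of quizartinib in RPMI or replicate 2 of vehicle in hBMSC-CM (adjusted p over all these fits 0.0528 to 0.467). ATP6V1B2, ATP6V1C1, ATP6V1E1 and ATP6V1H lay between -0.06 and 0.05 on the log2 scale in RPMI, with SE of 0.04 to 0.05, and were not called in either medium. With library size alone and upper-quartile factors ATP6V1B2 and ATP6V1H were called higher in both media, as was ATP6V1H in hBMSC-CM with limma-voom, and without the low-count filter ATP6V1C1 and ATP6V1E1 were called lower in RPMI. The accessory protein ATP6AP1, needed for assembly of the pump, read 64.8, 65 and 61 CPM with vehicle and 92.9, 93.7 and 95.3 CPM with quizartinib in RPMI (log2 FC 0.56 ± 0.04 (SE), adjusted p = 1.19e-10), and 72.6, 68.4 and 68.5 CPM and 78.1, 75.2 and 75.4 CPM in hBMSC-CM (log2 FC 0.13 ± 0.04 (SE), adjusted p = 0.0155). The small increase of ATP6AP1 in hBMSC-CM was not called without the low-count filter, with filterByExpr, without replicate 2 of vehicle or without replicate 1 of quizartinib in hBMSC-CM (adjusted p = 0.0557 to 0.222). ATP6AP2, also known as the (pro)renin receptor, read 83.2, 83 and 82.3 CPM and 92.1, 88.4 and 92.4 CPM in RPMI (log2 FC 0.13 ± 0.04 (SE), adjusted p = 0.00458), an increase of 1.10-fold that was not called without the low-count filter or with filterByExpr (adjusted p = 0.694 and 0.0954).

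To determine whether the response differed between the media, the interaction was tested, as the log2 response in hBMSC-CM minus that in RPMI. It was positive for 3 members and negative for 19, where 26.1% and 19.2% of all tested genes were called in these directions. Without the low-count filter these counts were 5 and 12. All 19 negative calls were among the 31 members higher in RPMI, and 43.6% of all genes higher in RPMI also had a negative call. Of the 9 members lower in RPMI, 2 had a positive call, beside 60.8% of all genes lower in RPMI. Of the 19, 15 were hydrolases or cofactors, 3 membrane proteins (SCARB2, NPC1 and LAMP2) and 1 a V-ATPase protein (ATP6AP1). Among the 15, the call of LIPA (adjusted p = 0.0442) was lost in 12 of the other fits (0.0503 to 0.591). That of ARSB (0.0324) was lost in 9 (0.0516 to 0.536). The 5 most negative values belonged to SCARB2 (log2 difference -0.83 ± 0.07 (SE), adjusted p = 7.38e-09), IDS (log2 difference -0.82 ± 0.13 (SE), adjusted p = 3.96e-05), TPP1 (log2 difference -0.61 ± 0.11 (SE), adjusted p = 0.000182), MANBA (log2 difference -0.52 ± 0.07 (SE), adjusted p = 3.01e-06) and CTSB (log2 difference -0.50 ± 0.08 (SE), adjusted p = 2.06e-05). The positive calls were CD63 (log2 difference 0.27 ± 0.06 (SE), adjusted p = 0.00175), CTSC (log2 difference 0.22 ± 0.06 (SE), adjusted p = 0.00295) and ATP6V0A2 (log2 difference 0.20 ± 0.06 (SE), adjusted p = 0.012), of which CD63 rose in hBMSC-CM and the others fell by less there. The call of ATP6V0A2 was lost without replicate 2 of quizartinib in RPMI (adjusted p = 0.0549). IDUA (log2 difference 0.29 ± 0.17 (SE), adjusted p = 0.18) and MCOLN1 (log2 difference 0.25 ± 0.15 (SE), adjusted p = 0.189) had positive values that did not pass the test, although that of IDUA was 0.45 and called without replicate 1 of vehicle in hBMSC-CM (adjusted p = 0.0419). NAGLU (log2 difference 0.20 ± 0.10 (SE), adjusted p = 0.115) did not pass either. In the V1 sector no subunit had a called interaction, with values between -0.22 and 0.08, but ATP6V1D (-0.22, adjusted p = 0.0521) and ATP6V1G1 (-0.17, adjusted p = 0.0505) lay next to the threshold. Both were called with DESeq2 size factors, with upper-quartile factors and without replicate 1 of vehicle in RPMI, of vehicle in hBMSC-CM or of quizartinib in hBMSC-CM, ATP6V1D also without replicate 2 and ATP6V1G1 without replicate 1 of quizartinib in RPMI (adjusted p = 0.0188 to 0.0455 and 0.0118 to 0.0471).

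**Figure D4:**
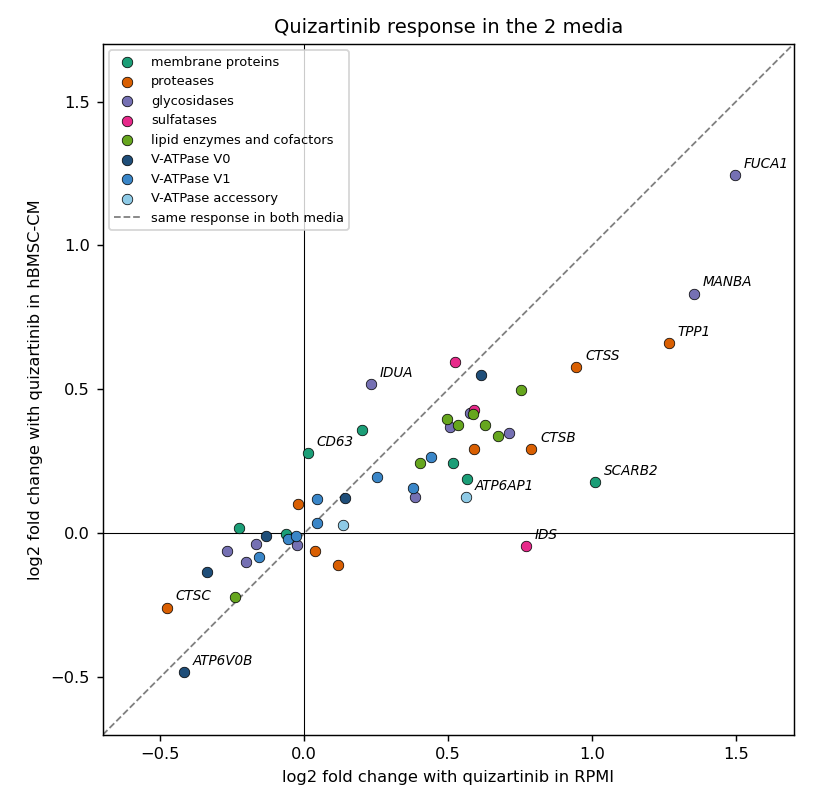
Log2 fold change of quizartinib against vehicle in hBMSC-CM (y axis) against that in RPMI (x axis) for the 52 tested genes, colored by role; the dashed line marks equal responses. SCARB2 and IDS lie farthest below the line, with interactions of -0.83 and -0.82, and CD63 and IDUA above it.

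The responses of the members in both media were set beside those of all genes. Of the 31 members higher in RPMI, 28 were also called higher in hBMSC-CM and none was called lower, compared with 72.7% and 1.17% of all genes higher in RPMI. The calls of NPC1, GLB1, ATP6AP1, ATP6V0D1 and ATP6V1D in hBMSC-CM were lost in some fits, as given above. CTSH, IDS and ATP6AP2 were not called in hBMSC-CM. There CTSH had a log2 FC of -0.11 ± 0.05 (SE), with an adjusted p of 0.0524, and it was called lower in 9 of the other fits (0.0266 to 0.04997). ATP6AP2 was called higher in hBMSC-CM with library size alone and upper-quartile factors (adjusted p = 0.00569 and 0.0184). The median ratio of the log2 response in hBMSC-CM to that in RPMI was 0.607 over these 31 members and 0.594 over all genes higher in RPMI. Of the 9 members that were lower in RPMI, 4 (CTSC, PPT1, ATP6V0A2 and ATP6V0B) were called lower in hBMSC-CM. This is a smaller share than the 76.8% of all genes lower in RPMI. The median ratio was 0.499 over these 9 members, against 0.493 over all genes lower in RPMI. Members were chosen for these ratios by their response in RPMI, as were the genes of the background, so the counts and ratios are given as a description.

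With quizartinib, the cells in hBMSC-CM and in RPMI differed in both directions. Of the 52 members, 18 were higher and 20 lower in hBMSC-CM, against 35.5% and 34.3% of all tested genes, with a median of -0.01. These counts were 14 and 21 with upper-quartile factors and 18 and 16 without the low-count filter. Without replicate 2 of quizartinib in hBMSC-CM they were 15 and 17. The calls of CTSD, ATP6AP2, CTSZ, ATP6V0A1 and GLB1 were lost in 8, 7, 6, 6 and 5 of the other fits. The 20 lower members were all among the 31 that rose with quizartinib in RPMI, and 71.2% of all genes that rose there were lower in hBMSC-CM. The largest decreases were those of IDS (log2 FC -0.96 ± 0.09 (SE), adjusted p = 6.61e-09), SCARB2 (log2 FC -0.77 ± 0.05 (SE), adjusted p = 1.76e-11), MANBA (log2 FC -0.63 ± 0.05 (SE), adjusted p = 1.4e-10) and TPP1 (log2 FC -0.56 ± 0.08 (SE), adjusted p = 1.35e-06). The largest increases were those of CTSC (log2 FC 0.55 ± 0.04 (SE), adjusted p = 9.5e-11), CD63 (log2 FC 0.49 ± 0.04 (SE), adjusted p = 3.75e-09) and GLA (log2 FC 0.45 ± 0.06 (SE), adjusted p = 1.75e-06). FUCA1 was higher in hBMSC-CM under the drug (log2 FC 0.24 ± 0.04 (SE), adjusted p = 7.34e-05), unlike MANBA. All V-ATPase subunits lay between -0.34 (ATP6V1D) and 0.32 (ATP6V0E1). This comparison shares the quizartinib libraries in RPMI with the response in RPMI, so the 2 are not independent.

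With vehicle, 34 of the 52 members were not called between the media. There were 17 higher and 1 lower in hBMSC-CM, against 16.6% and 15.5% of all tested genes, and the median log2 fold change was 0.09. The highest were FUCA1 (log2 FC 0.49 ± 0.05 (SE), adjusted p = 2.65e-07), CTSH (log2 FC 0.43 ± 0.05 (SE), adjusted p = 1.55e-06), GLA (log2 FC 0.35 ± 0.06 (SE), adjusted p = 0.000183) and CTSC (log2 FC 0.33 ± 0.04 (SE), adjusted p = 1.93e-06). ATP6V0B, ATP6AP2, ATP6V0E1, ATP6V1F, ATP6V1E1, ATP6AP1 and ATP6V1B2 made up the 7 V-ATPase proteins that were higher, by 0.29, 0.21, 0.20, 0.19, 0.18, 0.13 and 0.13 on the log2 scale. Of these calls, those of ATP6V1F and ATP6V1B2 were lost with library size alone, those of ATP6V1F, ATP6V1B2 and ATP6AP1 with upper-quartile factors and without replicate 3 of vehicle in RPMI or replicate 1 of vehicle in hBMSC-CM, and that of ATP6AP1 without the low-count filter. ATP6V1B2 was also lost without replicate 2 of vehicle in either medium, and ATP6V1F with the DESeq2 Wald test and without replicate 2 of vehicle in RPMI or replicate 3 of vehicle or quizartinib in hBMSC-CM (adjusted p over all these fits 0.0501 to 0.207). The 1 lower member was ARSB (log2 FC -0.12 ± 0.04 (SE), adjusted p = 0.034), and over all alternatives and fits without 1 library the number of lower members was between 0 and 5. The vehicle libraries of SCARB2, TPP1, MANBA and IDS in hBMSC-CM overlapped with or lay next to those in RPMI, and none of these 4 was called (log2 fold changes 0.06, 0.05, -0.11 and -0.14).

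Other genes of the lysosome were taken from 5 further lists. Of 23 tested enzymes outside the 55, 17 were higher (73.9%) and 3 lower (13.0%) with quizartinib in RPMI, where 40.1% and 39.2% of all tested genes were called. The 3 with the largest changes and a mean of at least 10 CPM were DNASE2, an acid nuclease (log2 FC 1.83 ± 0.07 (SE), adjusted p = 3.39e-16), CTSO, a cysteine protease (log2 FC 1.59 ± 0.09 (SE), adjusted p = 6.38e-13), and PLA2G15, a phospholipase (log2 FC 1.17 ± 0.07 (SE), adjusted p = 6.29e-13), and in hBMSC-CM they rose by 0.92, 1.36 and 0.39. Of 19 other membrane proteins, 13 were higher (68.4%) and 4 lower (21.1%). SLC29A3, a nucleoside transporter, rose (log2 FC 1.499 ± 0.08 (SE), adjusted p = 1.2e-13), whereas LAPTM4B (log2 FC -1.04 ± 0.05 (SE), adjusted p = 8.82e-15) and TMEM192 (log2 FC -0.88 ± 0.06 (SE), adjusted p = 3.81e-12) fell. TMEM192 was at 48.5, 50.8 and 48.6 CPM with vehicle and 25.8, 27.4 and 27 CPM with quizartinib in RPMI, and at 50.5, 53.5 and 49.9 CPM and 47.5, 43.3 and 47.8 CPM in hBMSC-CM, where its log2 FC was -0.15.

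Among 10 further tested V-ATPase genes, 5 were higher and 4 lower in RPMI, shares of 50% and 40% that lie near the 40.1% and 39.2% of all tested genes. DMXL1, a part of the RAVE-like complex that joins V1 to V0, rose (log2 FC 1.03 ± 0.05 (SE), adjusted p = 9.65e-15). VMA21, an assembly factor of V0 in the endoplasmic reticulum, fell from 136, 144 and 138 CPM to 71.3, 71.4 and 67.7 CPM (log2 FC -0.99 ± 0.05 (SE), adjusted p = 1.28e-13), and CCDC115, another assembly factor, rose (log2 FC 0.41 ± 0.06 (SE), adjusted p = 1.64e-06). The groups of VMA21 did not overlap. Of 14 genes for targeting of enzymes, 11 were higher (78.6%) and 2 lower (14.3%). GGA2, an adaptor for mannose 6-phosphate receptors, rose from 244, 225 and 236 CPM to 481, 470 and 463 CPM (log2 FC 1.00 ± 0.04 (SE), adjusted p = 5.06e-15), M6PR, the cation-dependent receptor, fell (log2 FC -0.52 ± 0.04 (SE), adjusted p = 5.22e-10), and SUMF1, which activates sulfatases, rose (log2 FC 0.45 ± 0.07 (SE), adjusted p = 5.85e-06). The other receptor of this kind, IGF2R, was higher (log2 FC 0.36) and another adaptor, GGA1, lower (log2 FC -0.30); both are named after their values were seen.

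In the list of regulators, 9 of 17 were higher (52.9%) and 5 lower (29.4%) in RPMI, against 40.1% and 39.2% of all tested genes. TFEB read 29.7, 28 and 30.4 CPM with vehicle and 57.4, 59.6 and 60.9 CPM with quizartinib in RPMI (log2 FC 1.01 ± 0.05 (SE), adjusted p = 9.62e-14), and 27.6, 28.4 and 28.3 CPM and 35.1, 33.5 and 34.1 CPM in hBMSC-CM (log2 FC 0.29 ± 0.05 (SE), adjusted p = 8.35e-05). The groups did not overlap in either medium, and the response was smaller in hBMSC-CM (interaction log2 difference -0.73 ± 0.07 (SE), adjusted p = 7.42e-08). TFE3 rose in RPMI (log2 FC 0.81 ± 0.06 (SE), adjusted p = 4.53e-11) and in hBMSC-CM (log2 FC 0.49 ± 0.06 (SE), adjusted p = 3.51e-07), and TFEC, a related factor, rose in both (0.92 and 0.96). MITF was lower in RPMI (log2 FC -0.25 ± 0.10 (SE), adjusted p = 0.025) and, in vehicle-treated cells, higher in hBMSC-CM (log2 FC 0.51 ± 0.09 (SE), adjusted p = 0.000294). ZKSCAN3, a zinc-finger protein described as a repressor of lysosomal genes, rose from 12.4, 13.3 and 13 CPM to 32.4, 30.8 and 28.5 CPM in RPMI (log2 FC 1.25 ± 0.07 (SE), adjusted p = 5.98e-13), and in hBMSC-CM by 0.86. Transcript levels of these factors do not measure where their proteins are in the cell.

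**Figure D5:**
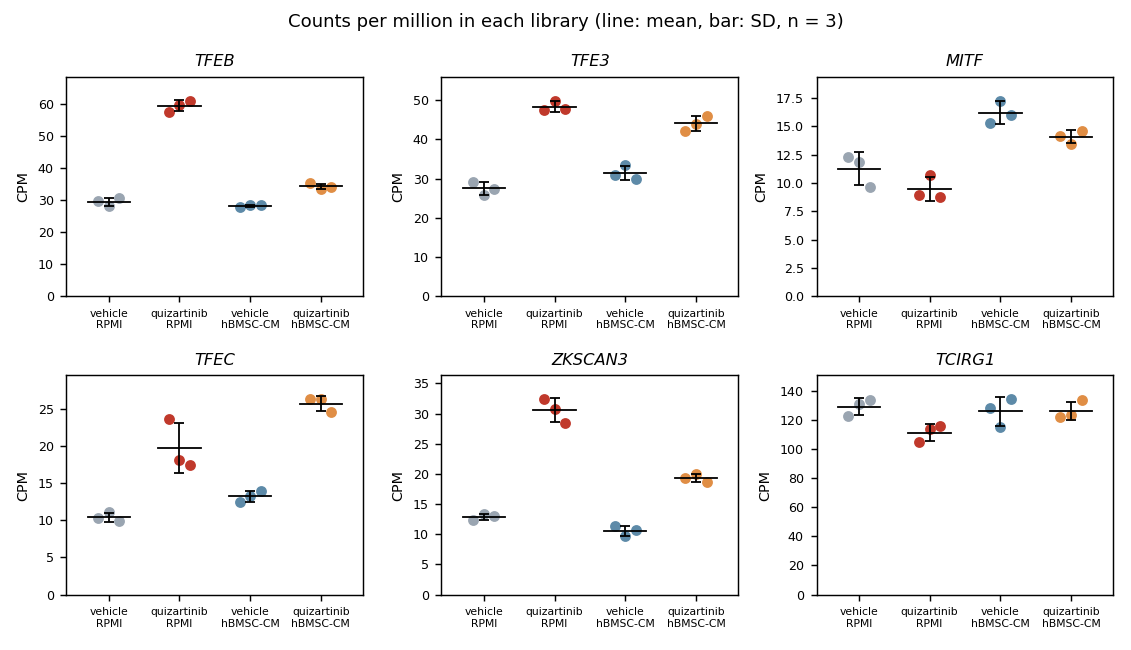
CPM (y axis, from 0) of TFEB, TFE3, MITF, TFEC, ZKSCAN3 and TCIRG1 in each of the 12 libraries (points), with mean (line) and SD (bar) of 3 replicates per group. TFEB, TFE3 and ZKSCAN3 are highest with quizartinib in RPMI, and MITF is higher in hBMSC-CM at either treatment.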

How the data were processed

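RNA from 12 samples of MOLM-13 cells (4 groups of 3, grouped by their labels) was measured by poly-A-selected, paired-end RNA-seq. The authors trimmed adapters with BBDuk, used STAR 2.6.0a for alignment to hg38.p12 (Ensembl) and for counting, added the counts of identifiers sharing a name and deposited raw counts per gene. Use of strand in the counting is not given in the sources used here. Reads shared by overlapping genes or pseudogenes cannot be reassigned. Depth was 19966546 to 31546104 counts.

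The filter removed genes under a mean count of 1 or under 1 CPM on average and left 12998. Counts were scaled by TMM and tested in R 4.3.3 with edgeR 4.0.16 (glmQLFit and glmQLFTest, two-sided) in 1 model of 4 group means with 8 residual degrees of freedom, in 5 contrasts, with Benjamini-Hochberg adjustment over all genes and a threshold of 0.05. The study's methods name limma, and limma-voom (3.58.1) and DESeq2 (1.42.0) were run as alternatives, together with other scalings, filters, a replicate block, fits of only the groups compared, and fits without each library. Gene positions, transcript lengths and overlaps came from GENCODE v44 on GRCh38, and promoters from RefSeq on GRCh38.p14.

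The members and all gene lists were chosen with earlier results of these data known. Full statistics are given for the members with the highest and lowest response in RPMI in each of the 8 lists and for the 5 largest and 5 most negative interactions. From each further pathway list, up to 3 called genes averaging 10 CPM or more were taken by size of change, plus TFEB, TFE3, MITF and TCIRG1. Other genes are given by values chosen to account for all members. The test was tried on simulated data, in which 200 genes of the contrast of quizartinib against vehicle in RPMI, among 12998, were changed. It recovered 35, 42, 49 and 50 of 50 genes changed 1.25-, 1.5-, 2- and 4-fold and called 10 unchanged genes. In the data, 79.3% of all tested genes were called in this contrast, a far larger share than was changed in the simulation. The simulation therefore cannot show the recovery or the false calls at that share.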

Additional observations from a re-analysis of the deposited data

Results flagged for a closer look

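The response to quizartinib differed between hBMSC-CM and RPMI by the test of the difference itself for 10 of the members given with full statistics. The log2 response in hBMSC-CM minus that in RPMI was -0.83 for SCARB2 (adjusted p = 7.38e-09), -0.82 for IDS (3.96e-05), -0.61 for TPP1 (0.000182), -0.52 for MANBA (3.01e-06), -0.50 for CTSB (2.06e-05), -0.44 for ATP6AP1 (6.04e-06), -0.25 for GM2A (0.00322) and -0.25 for FUCA1 (0.00418), from edgeR's quasi-likelihood test with adjustment over all genes. It was 0.27 for CD63 (0.00175) and 0.22 for CTSC (0.00295). The values of FUCA1 and GM2A did not pass the test without the low-count filter (-0.18 for each, adjusted p = 0.122 and 0.0857). Without 1 library at a time, all 10 stayed called, with values between -0.87 and -0.79 for SCARB2 and between 0.22 and 0.30 for CD63.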

How the results depend on the processing

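The log2 value of no called member changed sign under another scaling, filter or test or without 1 library. With 3 libraries per group and SE of 0.04 to 0.13 on the log2 scale between groups, the smallest difference called was 0.10. Over the genes tested in both fits, the median difference in log2 fold change from the values reported was 0.102 in RPMI with upper-quartile factors, 0.104 in hBMSC-CM with library size alone and -0.103 in RPMI without the low-count filter. The number of members lower with quizartinib in RPMI (9) became 5 with library size alone, 5 with upper-quartile factors and 15 without the low-count filter. Members lower in hBMSC-CM with vehicle (1) became 3 with library size alone, 5 with upper-quartile factors, and 0 with no filter, with filterByExpr, with the replicate block and with the DESeq2 Wald test, and were between 0 and 4 when 1 library was left out (4 without replicate 1 of vehicle in hBMSC-CM). For the interaction, the positive members (3) became 5 and the negative members (19) 12 without the filter, and the positive ones were between 2 and 5 without 1 library (5 without replicate 1 of vehicle in hBMSC-CM). The other alternatives left the counts within 1.5 times.

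Log2 values near 0 that did not pass the test changed sign. With quizartinib in hBMSC-CM, MCOLN1 was -0.0135 without the filter, -0.0034 with filterByExpr and between -0.0418 and 0.1287 when 1 library was left out. With library size alone and upper-quartile factors, NAGLU was 0.0409 and 0.0193, IDS 0.0584 and 0.0373, and ATP6V1F 0.0219 and 0.0006. ATP6AP2 was -0.0022 without the filter. In RPMI, CD63 was -0.0901 without the filter, -0.0434 with filterByExpr and between -0.0026 and 0.0366 when 1 library was left out. Between the media under quizartinib, ARSA lay between -0.0051 and 0.1098 and IDUA between -0.0123 and 0.1096 without 1 library. Interactions of ATP6V0A1 and ATP6V0B were 0.0090 and 0.0066 without the filter, that of PPT1 was -0.0003 with upper-quartile factors, and without 1 library they lay between -0.1055 and 0.0153 for ATP6V0A1, -0.1245 and 0.0235 for ATP6V0B, -0.0264 and 0.0491 for PPT1 and -0.0210 and 0.1639 for ARSA.

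Samples with the same replicate number did not deviate together (correlations of -0.227 to 0.098, 0 of 18 over 0.1), so the numbers were not used as pairs. With a replicate block, 30 members were higher and 9 lower with quizartinib in RPMI, 32 and 4 in hBMSC-CM, 18 and 20 for the medium under quizartinib, 17 and 0 for the medium under vehicle, and 3 and 18 for the interaction.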
